A study of Mus musculus with 416 samples.

Results

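The cells described here are single blastomeres of control mouse morulae that were caught in the late or the early part of S phase. They were chosen by a measured value, the percent of a cell's own measured genome that was already replicated: 55% or more for the late-S class and below 45% for the early-S class. Of 299 cells in the deposited tables, 44 came from siCont morulae, and 34 of these met the rule, 15 as late-S and 19 as early-S cells. The other 10 lay between the limits and serve as cells that the rule did not use. All embryos had the genotype (C57BL/6J xCBA) x DBA/2J, and their zygotes were injected between 17 and 18 h after hCG, the hormone that triggers ovulation. The siRif1 morulae received 20 µM of an siRNA against Rif1, and the siCont 4-cell embryos, siCont 8-cell embryos and siCont morulae received 20 µM of a control siRNA. Every group was therefore injected, and embryos without injection were not analysed here. The files hold states of DNA only, so how far Rif1 was depleted was not measured here. Which embryo or litter a cell came from, and any batch, is not in the labels. Cells of a group are thus not replicates of a condition, each group counts as 1 sample, and no difference below has a p-value.

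A mammalian genome is not copied all at once in S phase: long domains fire their replication origins in a preferred order. In most cells studied, gene-rich open chromatin is copied early, and gene-poor chromatin held at the nuclear lamina is copied late. RIF1 binds chromatin and recruits the phosphatase PP1, which counteracts the kinase that fires origins, and it is known as a keeper of late replication. The morula is the compacting embryo shortly before trophectoderm and inner cell mass become distinct.

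Each table gave a state of 0, 1 or NA for every 50-kb bin of autosomes 1 to 19 in every cell. The files do not say which state means replicated. It was taken to be 1, since over the siCont morula cells the state was 1 in 64.02% of cells on average where a protein-coding gene has its midpoint, against 43.1% elsewhere. This reading fixes the direction of every gene-density contrast below, and only the sizes are descriptions. The shortest run of 1 state inside a chromosome was 5 measured bins (250 kb), so nothing finer can be read. The share of a bin is the percent of the measured cells of a class in which it was replicated. Of 49264 bins, 46225 had at least 75% of the cells of each class measured and were used.

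The late-S cells spanned 56.04 to 81.8% replicated with a median of 63.4%, and the early-S cells 25.2 to 44.8% with a median of 39.8%. Cells below 25.2% and above 81.8% replicated are not among them, so the start and the end of S phase themselves are not covered. Only 44 of 72 labelled siCont morula cells had deposited states, and where in S phase the others stood is not known. Next to the limits, the lowest late-S cell stood at 56.04% and the nearest cell outside at 54.8%, and the highest early-S cell stood at 44.8% and the nearest cell outside at 45.3%. Between 88.1 and 93.8% of bins were measured in each late-S cell, and between 89.99 and 93.8% in each early-S cell. Several cells stood apart. In 4 cells 1 autosome was not measured, namely chromosome 6 in late-S cell 67, chromosome 16 in late-S cell 61, chromosome 16 in early-S cell 57 and chromosome 18 in early-S cell 45. Late-S cell 48 had 0.243% of chromosome 4 replicated, late-S cell 65 had 100% of chromosome 19, and early-S cell 63 had 0% of chromosome 8. The states of 4 late-S and 4 early-S cells correlated below 0.3 with the mean profile of siCont 8-cell cells, against none of the 10 cells between. Counts of bins, stretches and genes without these cells are given with the main ones below. The 2 most alike cells differed at 14.7% of shared bins, so no cell appears to have been deposited under 2 names.

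Most of the genome was replicated in more late-S than early-S cells, which the rule fixes, but the gain was very uneven along the chromosomes. The late-minus-early difference had a median of 27.02 points over the used bins, with the middle 90% of bins between 0.376 and 57.5 points and a full range from -31.2 to 88.1 points. In 2093 bins (4.53%) fewer late-S than early-S cells were replicated. The shares in the late-S and the early-S cells correlated over bins with r = 0.770 and rho = 0.788. This is a description over 46225 bins that share the same cells and are not independent of their neighbours. In the late-S cells 1934 bins were replicated in every measured cell and 247 in none. In the early-S cells 27 bins were replicated in every measured cell and 3014 in none.

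**Figure D1:**
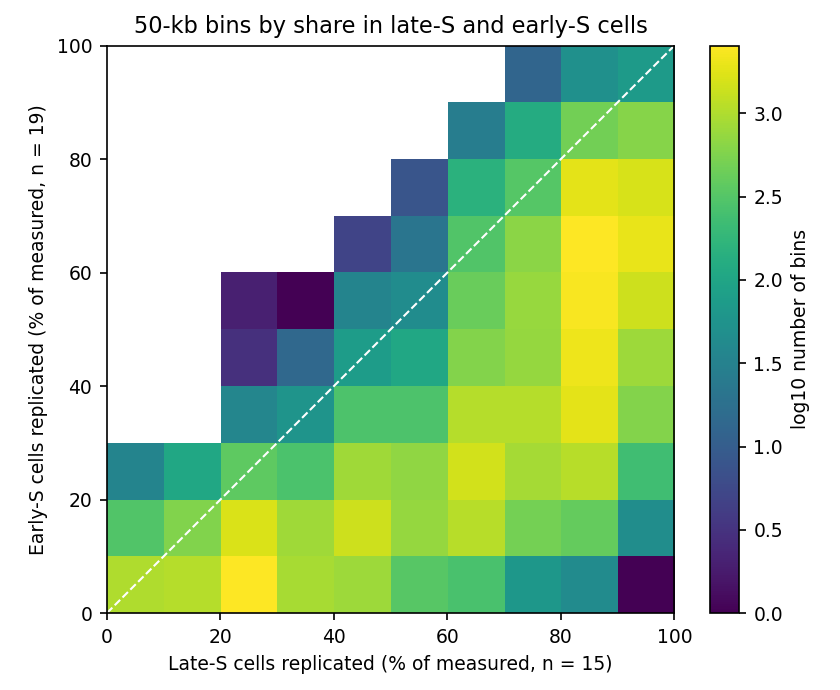
Used 50-kb bins by the share of late-S cells (x axis, %, 15 cells) and of early-S cells (y axis, %, 19 cells) in which they were replicated. Colour gives log10 of the number of bins in each square of 10 by 10 points, and the dashed line marks equal shares. Most bins lie below the line, the median difference being 27.02 points, and 4.53% of bins lie above it.

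Bins were called last-replicated where at most 25% of the late-S cells had copied them and first-replicated where at least 75% of the early-S cells had. These calls are made on the values that define the classes and are given as descriptions. There were 5393 last-replicated bins (11.7% of used bins) and 3011 first-replicated bins (6.51%), and no bin was both. With so few cells the shares move in steps: the highest share inside the last-replicated limit was 21.4% and the lowest outside 26.7%, and the lowest share inside the first-replicated limit was 77.8% and the highest outside 73.7%. Without the 4 late-S and 4 early-S cells of low correlation with the 8-cell profile, the rule gave 8547 last-replicated and 5725 first-replicated bins. Without the 4 late-S and 3 early-S cells that lacked an autosome or had one wholly in 1 state, the rule gave 8638 last-replicated and 5289 first-replicated bins. Leaving out 1 cell at a time gave 5393 to 7100 last-replicated and 3011 to 4314 first-replicated bins. The highest counts came without late-S cell 65 and without early-S cell 29. Leaving out 1 cell can here only add bins, because 3 of 14 and 14 of 18 cells still meet the limits.

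The 10 cells between the classes took no part in these calls and give a reading of the same bins. They had 6.04% of the last-replicated and 86.0% of the first-replicated bins replicated, against 50.3% of all used bins. The early-S cells, with bins called on their own class, had 82.5% of the first-replicated bins replicated, the cells between 86.0% and the late-S cells 87.6%. The early-S value is raised by the call on the same cells. With bins called again without the cell being read, the means over cells were 70.5% in early-S and 87.6% in late-S cells. First-replicated bins thus stood lower in early-S cells than in the other sets. The last-replicated bins had shares of 6.57% in the early-S cells, 6.04% in the cells between and 14.3% in the late-S cells. The late-S value is lowered by the call, and was 21.6% on average with the cell being read left out.

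Cell by cell the order was kept in direction but not in degree. When the bins were called again without the cell being read, more of the first-replicated than of the last-replicated bins were replicated in 15 of 15 late-S cells and 19 of 19 early-S cells, and in 10 of 10 cells between. The gap had a median of 64.8 points in the late-S cells, from 19.5 to 96.2 points, and of 68.1 points in the early-S cells, from 18.5 to 98.6 points. In the cells between it was 55.7 to 93.9 points with a median of 87.2. Late-S cell 51, at 63.5% replicated, had 1.87% of the last-replicated and 96.1% of the first-replicated bins, and late-S cell 17, at 68.3%, had 3.95 and 99.5%. Late-S cell 61 stood at the other end, with 72.3% of the last-replicated and 91.8% of the first-replicated bins at 80.7% replicated. Among the early-S cells, cell 2 had 0.334% of the last-replicated and 98.98% of the first-replicated bins at 43.6% replicated. Early-S cell 35, at a similar 44.4%, had 30.5 and 49.1%. Cells at nearly the same percent replicated therefore differed widely in how closely their deposited states followed the common order. Cells 35 and 61 also had the lowest correlations with the 8-cell profile, 0.130 and 0.154, and cell 61 lacked chromosome 16. Read depth per cell is unknown, so a departure from the order cannot be told apart from error in the states.

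**Figure D2:**
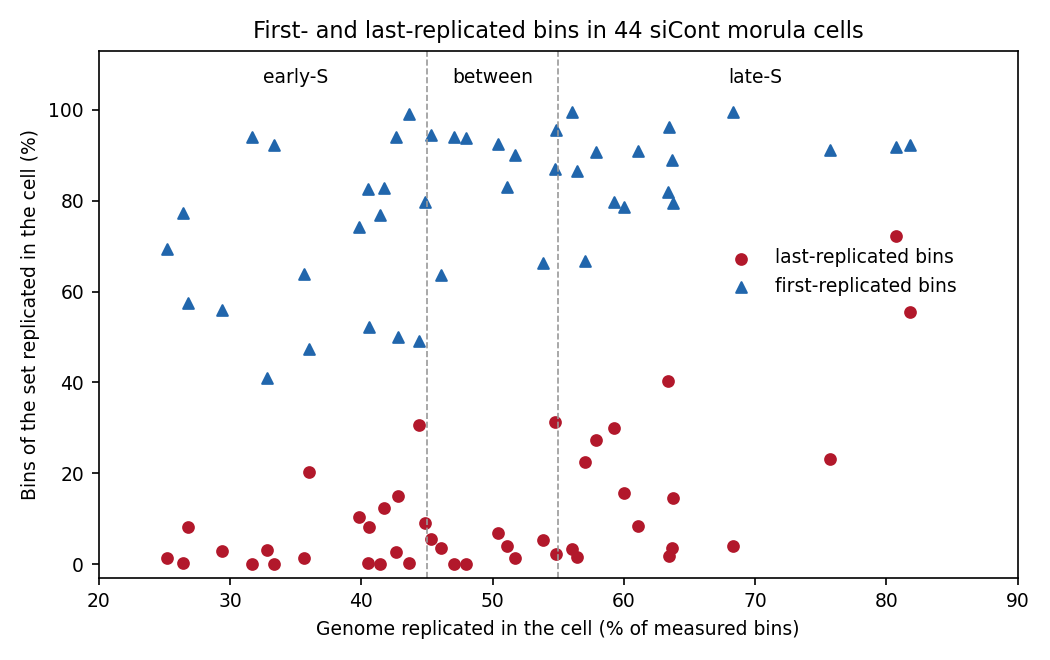
Each of the 44 siCont morula cells by the percent of its genome replicated (x axis) and the percent of last-replicated (circles) and first-replicated bins (triangles) replicated in it (y axis), with bins called without the cell itself. Dashed lines mark 45% and 55%. In every cell the triangle lies above the circle, by 18.5 to 98.6 points.

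Taken as a sequence along the 44 cells ordered by percent replicated, a bin with a fixed place in S phase would switch once. The share of cells that broke the best single switch had a median of 6.82% in last-replicated bins, 13.6% in first-replicated bins and 22.7% in the bins of neither class. The last-replicated and first-replicated bins were chosen for their shares, so these values are not a test. The breaks of a bin cannot outnumber the smaller of its counts of replicated and unreplicated cells. Bins replicated in few or in most cells must therefore show few breaks. The values thus do not tell which set was more strictly ordered. Across the 44 cells, the percent of last-replicated bins replicated had r = 0.599 (rho = 0.496) with the percent of the genome replicated, and that of first-replicated bins r = 0.489 (rho = 0.441). The points share the bins and part of the same states.

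The last-replicated bins formed longer stretches than the first-replicated ones. There were 280 last-replicated stretches with a median of 0.575 Mb, 38 of them at least 2 Mb long, and 298 first-replicated stretches with a median of 0.350 Mb, 8 of them at least 2 Mb. Without the cells of low correlation the medians were 0.900 Mb for last-replicated and 0.550 Mb for first-replicated stretches, with 69 and 36 stretches of at least 2 Mb. Without the cells that lacked an autosome or had one wholly in 1 state they were 0.850 and 0.450 Mb, with 69 and 23 such stretches. The longest last-replicated stretch covered 6.90 Mb at chr8:96600001-103500000 (GRCm38), where 2 protein-coding genes, Cdh8 and Cdh11 for cell-adhesion cadherins, overlap it. Its mean share was 10.1% in late-S and 4.08% in early-S cells. The next was 6.50 Mb at chr1:98400001-104900000 with 4 protein-coding genes, at 9.38% in late-S and 11.1% in early-S cells. The longest first-replicated stretch covered 3.25 Mb at chr19:7000001-10250000 with 69 protein-coding genes, among them Macrod1 and Ahnak. It had 36 used bins, fewer than its length would give, with mean shares of 88.3% in late-S and 90.2% in early-S cells.

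Single 1-Mb windows were picked for the lowest mean share in late-S cells or the highest mean share in early-S cells. Near-uniform states over those cells follow from the pick, and the counts are given as descriptions. A pair of windows shared the lowest mean late-S share of 1.33%. One lay at chr3:114000001-115000000 and holds Olfm3, for a secreted olfactomedin of brain and retina, and Col11a1, for a fibrillar collagen chain of cartilage. More than 50% of the window was replicated in 0 of 15 late-S cells, which allows a share of up to 20.0%, and in 0 of 19 early-S cells, which allows up to 15.8%. Not even the late-S cells at 80.7 and 81.8% had copied it. Limits of this kind are 3 divided by the number of measured cells. The exact 95% intervals reach slightly higher, to 21.8% for 0 of 15 and 17.6% for 0 of 19. Intervals and such limits cover counting error only, here and below. The same 0 of 15 and 0 of 19 were found at chr2:88000001-89000000, a cluster of olfactory receptor genes with Olfr1213, and at chr14:110000001-111000000 with Slitrk6, for a neuronal membrane protein. In the other of the pair, at chr3:43000001-44000000 with no protein-coding gene, 0 of 15 late-S and 1 of 19 early-S cells had copied it. The window at chr16:67000001-68000000 with Cadm2, a synaptic adhesion molecule, was replicated in 0 of 14 late-S cells, which allows up to 21.4%, and in 0 of 18 early-S cells, which allows up to 16.7%. At chr5:70000001-71000000, with the GABA-A receptor subunit genes Gabra2 and Gabrg1, 1 of 15 late-S cells (6.67%, exact 95% interval 0.169 to 31.9%), the one at 80.7%, and 0 of 19 early-S cells had copied it. None of the 10 cells between had more than 50% of any of the 6 windows replicated.

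Of the 6 windows with the highest early-S share, 5 held 14 to 40 protein-coding genes and 1 held 6. At chr11:3000001-4000000, with 20 protein-coding genes including Osbp2 (a sterol-binding protein), Sfi1 (a centrosome protein) and Limk2 (a kinase acting on the actin regulator cofilin), 15 of 15 late-S and 18 of 19 early-S cells had copied more than 50% of it. The early-S interval was 74.0 to 99.9%, and the cell at 25.2% was among those that had copied it while the cell at 44.4% was not. At chr6:71000001-72000000, with Reep1, which shapes the endoplasmic reticulum, and Polr1a, the largest subunit of RNA polymerase I, 13 of 14 late-S and 17 of 19 early-S cells had. At chr2:59000001-60000000, with Ccdc148, Baz2b and Tanc1, the counts were 14 of 15 late-S and 18 of 19 early-S cells. At chr6:38000001-39000000, with Tbxas1 for thromboxane synthase and the kinase gene Hipk2, they were 13 of 14 late-S and 17 of 19 early-S cells. At chr3:89000001-90000000, with Kcnn3, the histone methyltransferase gene Ash1l and 40 protein-coding genes in all, they were 13 of 15 late-S and 17 of 19 early-S cells, so this window had nearly the same share in both classes.

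The remaining window had a lower share in the late-S than in the early-S cells. At chr16:10000001-11000000, with Clec16a, Atf7ip2 and Ciita, the transactivator of MHC class II genes, 10 of 14 late-S cells (71.4%, interval 41.9 to 91.6%) and 17 of 18 early-S cells (94.4%, interval 72.7 to 99.9%) had copied it. The 4 late-S cells that had not were at 56.4, 57.1, 63.4 and 75.7%. The intervals overlap. The window was picked for its high early-S share, which raises the early-S value, so the intervals do not compare the classes fairly. Of the cells between, which took no part in the pick, 7 of 10 had copied it.

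**Figure D3:**
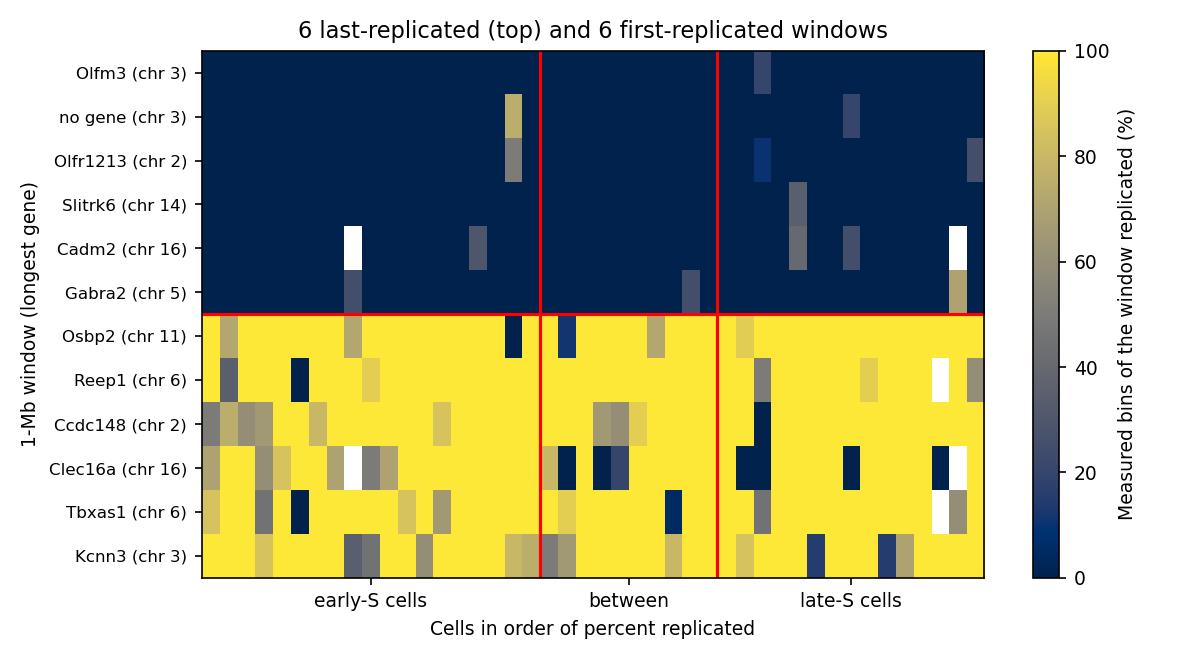
The 6 last-replicated (top) and 6 first-replicated (bottom) 1-Mb windows, named by their longest protein-coding gene, in the 44 siCont morula cells ordered from left to right by percent replicated. Colour gives the percent of the window's measured bins replicated in the cell, and white means not measured. In the top windows 1 late-S cell, at 80.7% (Gabra2 window), and 1 early-S cell, at 44.4% (window with no gene), are past 50%, and the bottom windows are replicated in most cells of both classes.

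Promoters of leading genes are given as examples of the sequence at these extremes. The RefSeq promoter entry of GRCm38.p6 (250 bases before to 50 after the gene's start, 5′ to 3′ on the gene's strand) is printed for the longest gene with an entry in 2 last-replicated and 2 first-replicated windows, with every CG dinucleotide in capitals. CG reads the same on both strands, and 94.6% of the 32851 promoter entries hold at least 1. Olfm3 lies at chr3:114903828-114904127 (plus strand) and Olfr1213 at chr2:88980218-88980517 (minus strand), both last-replicated. Osbp2 lies at chr11:3863854-3864153 (minus strand) and Reep1 at chr6:71707431-71707730 (plus strand), both first-replicated.
Olfm3: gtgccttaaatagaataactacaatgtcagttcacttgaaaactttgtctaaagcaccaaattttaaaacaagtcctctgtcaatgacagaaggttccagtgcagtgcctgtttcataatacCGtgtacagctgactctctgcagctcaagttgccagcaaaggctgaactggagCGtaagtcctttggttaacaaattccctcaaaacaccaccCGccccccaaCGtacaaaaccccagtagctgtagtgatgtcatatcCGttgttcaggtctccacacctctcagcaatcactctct
Olfr1213: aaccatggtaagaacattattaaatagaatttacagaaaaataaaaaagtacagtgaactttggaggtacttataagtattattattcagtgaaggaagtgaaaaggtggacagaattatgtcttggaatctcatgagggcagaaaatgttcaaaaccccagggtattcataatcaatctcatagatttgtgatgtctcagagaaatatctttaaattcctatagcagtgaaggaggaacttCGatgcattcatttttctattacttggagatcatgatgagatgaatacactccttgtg
Osbp2: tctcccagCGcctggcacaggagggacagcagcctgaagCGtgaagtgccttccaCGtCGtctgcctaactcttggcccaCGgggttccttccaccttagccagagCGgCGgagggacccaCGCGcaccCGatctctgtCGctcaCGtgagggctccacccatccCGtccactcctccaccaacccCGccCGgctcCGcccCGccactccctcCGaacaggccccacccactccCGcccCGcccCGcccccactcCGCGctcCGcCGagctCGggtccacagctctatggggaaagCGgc
Reep1: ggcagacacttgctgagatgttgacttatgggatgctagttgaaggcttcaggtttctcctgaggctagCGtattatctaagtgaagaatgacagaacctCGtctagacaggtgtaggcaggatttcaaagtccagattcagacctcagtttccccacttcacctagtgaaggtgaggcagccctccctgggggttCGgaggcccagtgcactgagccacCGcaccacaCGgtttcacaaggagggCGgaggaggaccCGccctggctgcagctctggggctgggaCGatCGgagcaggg
These entries hold 5 CG in Olfm3, 1 in Olfr1213, 27 in Osbp2 and 9 in Reep1. The 9 of Reep1 are fewer than the median of 15 in promoters of protein-coding genes in all used bins. They are more than the median of 7 over all 32851 entries. Olfm3's bin was replicated in 6.67% of late-S cells and Olfr1213's in 0%. The bins of Osbp2 and Reep1 were each replicated in 100% of late-S and 94.7% of early-S cells.

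Over the promoters of protein-coding genes in the 2 sets, those in last-replicated bins held fewer CG. The 417 promoters of genes in last-replicated bins had a median of 2 CG (middle 50% from 1 to 5) and of 38% G and C. The 2431 promoters of genes in first-replicated bins had a median of 18 CG (9 to 26) and 59.3% G and C. The 15580 promoters of protein-coding genes in all used bins had 15 CG (5 to 25) and 57.3%. At most 5 CG were found in 75.5% of last-replicated, 15.9% of first-replicated and 27.5% of all promoters. Genes in clusters, such as olfactory receptors, are counted once each here and share bins.

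Few protein-coding genes had their midpoint in last-replicated bins. These bins held 1.84 per Mb and first-replicated bins 19.6, against 8.45 over all used bins. A gene counts only in the bin of its midpoint, so a long gene also covers bins counted here as having none. Over the 19 autosomes, taken one by one, the SD of this density was 4.47 in last-replicated and 5.21 in first-replicated bins. No protein-coding gene had its midpoint in 93.5% of last-replicated, 38.1% of first-replicated and 70.2% of all used bins. Genes with their midpoint in last-replicated bins had a median length of 3.27 kb, against 17.6 kb in first-replicated bins and 18.3 kb in all. Of these 497 genes, 228 were olfactory and 24 vomeronasal receptor genes. There were also 18 long neuronal and fragile-site genes among them. Long noncoding RNA genes followed the same pattern at 1.09 per Mb in last-replicated and 7.82 in first-replicated bins, against 5.199 overall. MicroRNA genes stood at 0.100, 1.18 and 0.486 per Mb in last-replicated, first-replicated and all bins, and tRNA genes at 0.0185, 0.352 and 0.167. Pseudogenes differed little, at 2.92 per Mb in last-replicated, 3.78 in first-replicated and 3.33 in all bins.

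Chromosomes differed in both sets. Last-replicated bins made up 24.4% of chromosome 16 and 20.4% of chromosome 14, but 2.03% of chromosome 9 and 2.33% of chromosome 19. First-replicated bins made up 15.97% of chromosome 16 and 11.97% of chromosome 11, but 1.49% of chromosome 18 and 1.58% of chromosome 8. Chromosome 16 was thus highest in both. It was not measured in 1 late-S and 1 early-S cell, so its limits were 3 in 14 and 14 in 18 cells, of which chromosome 6 shared the late-S and chromosome 18 the early-S limit. Without the cells of low correlation, chromosome 14 was highest for last-replicated bins, at 29.2% against 28.8% of chromosome 16, and chromosome 11 for first-replicated bins, at 30.4% against 18.5% of chromosome 16. Without the cells that lacked an autosome or had one wholly in 1 state, chromosome 14 stood at 27.8% last-replicated and chromosome 11 at 19.9% first-replicated, again above chromosome 16, at 26.4 and 19.6%. By the same rule on siCont 8-cell cells it had 9.50% last-replicated and 2.90% first-replicated bins, and neither was the highest. Chromosome 14 was the highest for last-replicated bins there, at 15.2%. The 3 Mb nearest the centromere held 3.03% last-replicated and 11.9% first-replicated bins over all autosomes. The 3 Mb nearest the telomere held 9.04% and 2.46%.

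Apart from the fixed ends of the order, 5262 bins (11.4% of used bins) were replicated in at least 50 points more of the late-S than of the early-S cells. Their mean shares were 22.9% in the early-S cells, 50.4% in the cells between and 81.3% in the late-S cells. They lay in 836 stretches with a median of 0.2 Mb, shorter than those of the last-replicated and the first-replicated bins. Without the cells of low correlation there were 7187 such bins, and without those that lacked an autosome or had one wholly in 1 state 5005. Their gene density was 6.31 protein-coding genes per Mb and their genes had a median length of 22.4 kb. Promoters there had a median of 8 CG. In gene density and CG number they stood between the last-replicated and the first-replicated bins, and in gene length above both. The longest stretch of this kind, 3.35 Mb at chr5:93300001-96650000 with Fras1, an extracellular matrix gene, and a cluster of Pramel genes, had only 18 used bins. The longest in which every bin was used was 2.00 Mb at chr3:66100001-68100000 with Schip1, Rsrc1 and Veph1, at 78.2% in late-S and 15.8% in early-S cells.

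Of 19524 protein-coding genes with a measured midpoint bin, 497 (2.55%) lay in last-replicated, 2946 (15.1%) in first-replicated and 1659 (8.5%) in bins with a difference of 50 points or more. The gene lists below were chosen with earlier results of these data known, and members of a cluster share bins. Counts are set beside these shares and nothing is called particular to a list. Without the cells that lacked an autosome or had one wholly in 1 state, 994 genes were last-replicated and 5034 first-replicated, and 944 and 5837 without the cells of low correlation. Counts of single lists moved as well, and some of these moves stand with their lists.

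Genes with functions in nerve cells and in smell led the late end. Of 48 long neuronal and fragile-site genes, each in its own bin, 18 (37.5%) were last-replicated and 0 first-replicated. The 18 became 10 with every cell of each class measured and 26 with cells between 20 and 80% replicated. With share limits of 90 and 10% it became 1. Among all genes the last-replicated counts in these settings were 465, 967 and 120. Their median share was 33.3% in late-S and 15.8% in early-S cells, against 80 and 57.9% over all genes. Cadm2 was replicated in 1 of 14 late-S and 0 of 18 early-S cells, and Erbb4, a neuregulin receptor, in 3 of 15 late-S and 0 of 19 early-S cells. The axon guidance receptor gene Robo1 was replicated in 3 of 14 late-S and 0 of 18 early-S cells, and Lsamp, for a limbic adhesion protein, likewise. Not all long genes were late: Wwox, an oxidoreductase gene at a fragile site, was replicated in 13 of 15 late-S and 10 of 19 early-S cells. Of 1020 olfactory receptor genes, in 537 bins, 228 (22.4%) were last-replicated and 4 first-replicated, with medians of 46.7% in late-S and 10.5% in early-S cells. Olfr1186 was replicated in 0 of 15 late-S and 0 of 19 early-S cells, but Olfr15 on chromosome 16 in 13 of 14 late-S and 15 of 18 early-S cells. Without the cells of low correlation 343 olfactory receptor genes were last-replicated, and without those that lacked an autosome or had one wholly in 1 state 389. The last-replicated count of all genes rose as well, from 497 to 944 and 994 in these settings. Of 201 vomeronasal receptor genes, which sense pheromones and of which 57.1% of the list was measured, 24 were last-replicated and 1 first-replicated, with medians of 42.9% in late-S and 5.26% in early-S cells. The last-replicated ones were 53 and 52 in the same 2 settings, and 72 with cells between 20 and 80% replicated.

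Genes of basic cell machinery were counted in 3 lists. Of 77 ribosomal protein genes 0 were last-replicated and 13 (16.9%) first-replicated. Of 38 proteasome genes 0 were last-replicated and 8 (21.1%) first-replicated, and of 35 genes of respiratory complex I 0 and 9 (25.7%), against 2.55% last-replicated and 15.1% first-replicated among all genes. In lists of this size a count of 0 is near that share. Without the cells of low correlation 38 ribosomal protein and 17 proteasome genes were first-replicated, and without those that lacked an autosome or had one wholly in 1 state 34 and 13. The first-replicated count of all genes rose as well, from 2946 to 5837 and 5034 in these settings. The median shares of the 3 lists, 86.7% in late-S cells and 63.2 to 68.4% in early-S cells, were above those of all genes. Rps27 of the small ribosomal subunit was replicated in 14 of 15 late-S and 16 of 19 early-S cells, and Rpl10l, a testis copy of Rpl10, in 8 of 15 late-S and 4 of 19 early-S cells. Psmc3, an ATPase of the proteasome, and Ndufs3, a complex I subunit, each stood at 14 of 15 late-S and 17 of 19 early-S cells.

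Of 53 genes for origin licensing and the replication fork, 1 (1.89%) was last-replicated and 9 (17.0%) were first-replicated. These shares are near the 2.55 and 15.1% of all genes. Rfc3, a subunit of the clamp loader, was the last-replicated one, in 2 of 15 late-S and 2 of 19 early-S cells. Cdc45, part of the replicative helicase, was replicated in 11 of 14 late-S and 16 of 18 early-S cells. Orc1, the largest subunit of the origin recognition complex, was replicated in 14 of 15 late-S and 16 of 19 early-S cells. Orc5 of the same complex was replicated in 12 of 15 late-S but 2 of 19 early-S cells. Rif1 itself was replicated in 9 of 15 late-S and 10 of 19 early-S cells.

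The shares of lineage genes in the classes were read against the 2.55% last-replicated and 15.1% first-replicated of all genes. Of 26 pluripotency genes 0 were last-replicated and 4 (Lin28a, Dppa5a, Tet1 and Stat3, 15.4%) first-replicated, with medians of 86.2% in late-S and 60.5% in early-S cells. Pou5f1, which codes for OCT4, was replicated in 13 of 15 late-S and 11 of 19 early-S cells, Nanog in 11 of 14 late-S and 9 of 19 early-S cells, and Sox2 in 11 of 15 late-S and 6 of 19 early-S cells. Of 21 trophectoderm genes 0 were last-replicated and 5 (23.8%) first-replicated, namely Aqp3, Cdx2, Gata2, Cdh3 and Hand1. Cdx2, the trophectoderm regulator, was replicated in 15 of 15 late-S and 17 of 19 early-S cells. Of 13 primitive endoderm genes none was in either class, a list too short to set against these shares. Foxa2 was replicated in 5 of 15 late-S and 5 of 19 early-S cells, and Gata6 in 14 of 15 late-S and 12 of 18 early-S cells.

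Among the lists, clustered protocadherin and Hox genes had the highest shares of members in bins that differed most between the classes. Of 39 Hox genes, the positional regulators of the body axis, none was in either end class. A difference of 50 points or more was found at 20 of them (51.3%, against 8.5% of all genes). These were all 11 Hoxa and 9 of 10 Hoxb genes. Hoxa genes were replicated in 13 of 14 late-S and 7 or 8 of 19 early-S cells, and Hoxb genes from Hoxb9 to Hoxb1 in 15 of 15 late-S and 9 of 19 early-S cells. Hoxd10 stood at 9 of 15 late-S and 4 of 19 early-S cells, and Hoxc10 at 12 of 15 late-S and 12 of 19 early-S cells. The 4 clusters lie on 4 chromosomes and fill 13 bins, so these are few independent places. The median difference was 50.8 points in the Hox and 51.1 points in the clustered protocadherin list. Their counts thus stand close to the limit of 50 points. Hoxb13, at 15 of 15 late-S and 10 of 19 early-S cells, fell outside it. Of 57 clustered protocadherin genes, in 11 bins, 36 (63.2%) lay in bins past that limit, with medians of 66.7% in late-S and 16.7% in early-S cells. Pcdha12, for a neuronal identity protein, was replicated in 9 of 15 late-S and 0 of 18 early-S cells. Of 63 replication-dependent histone genes, in 13 bins, 16 (25.4%) lay in such bins, with medians of 86.7% in late-S and 47.4% in early-S cells.

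Zinc finger and imprinted genes spread over the order. Of 327 zinc finger genes 9 were last-replicated and 40 first-replicated, near the shares of all genes. With class limits of 40 and 60%, 62 zinc finger genes and 3367 of all genes were first-replicated. Zfp942 was replicated in 2 of 15 late-S and 0 of 19 early-S cells, and Zfp706 in 14 of 15 late-S and 18 of 19 early-S cells. Of 28 imprinted genes 2 (7.14%) were last-replicated and 3 (10.7%) first-replicated, against 2.55 and 15.1% of all genes. The 2 late ones, Magel2 and Ndn on chromosome 7, were each replicated in 2 of 15 late-S and 0 of 19 early-S cells. Mcts2 was replicated in 11 of 15 late-S and 16 of 19 early-S cells. States do not separate the parental copies. Of 101 measured keratin-associated, defensin and major urinary protein genes, 68.2% of their list, 0 were last-replicated and 13 (12.9%) first-replicated. Their medians were 73.3% in late-S and 26.3% in early-S cells. The 0 rested on the cells and limits used: 18 were last-replicated with class limits of 40 and 60% or without the cells of low correlation, and 20 with cells between 20 and 80% replicated or without those that lacked an autosome or had one wholly in 1 state. A group of 25 of the measured genes of this list (24.8%, against 8.5% of all genes) lay in bins with a difference of 50 points or more.

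**Figure D4:**
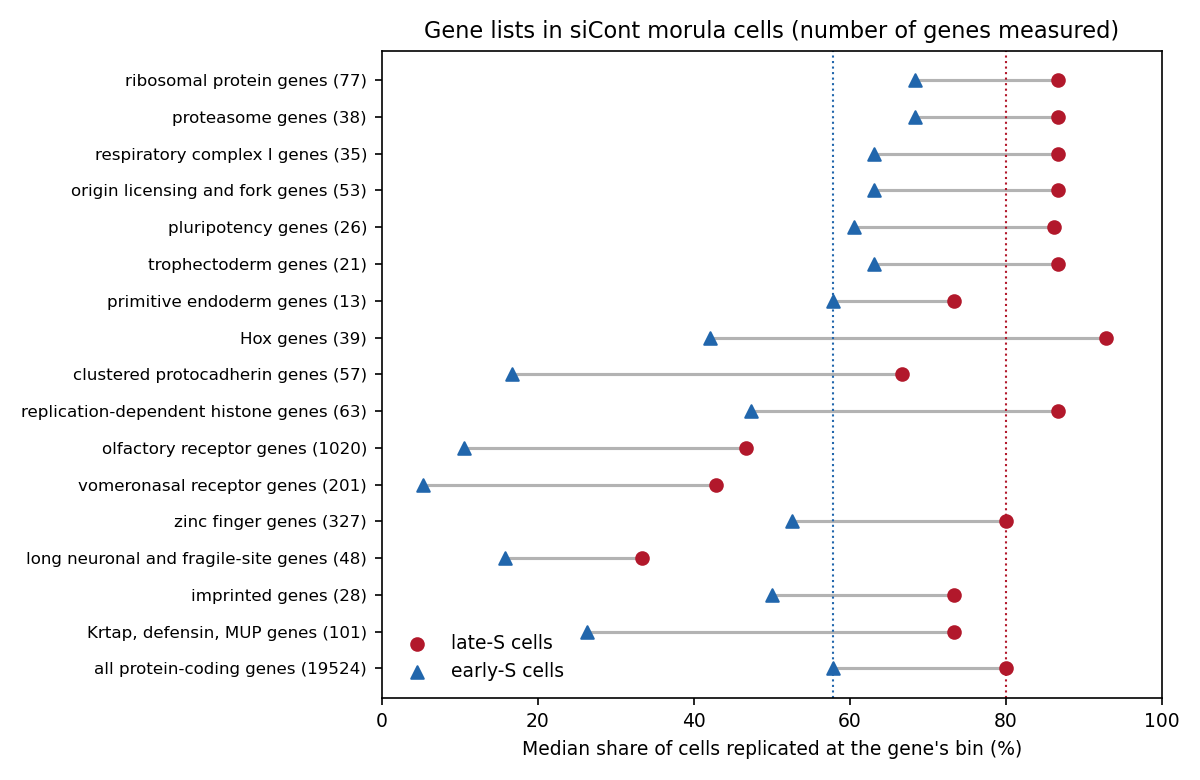
Median share of late-S cells (circles) and early-S cells (triangles) with the bin of a gene's midpoint replicated, for 16 gene lists and all protein-coding genes, with the number of genes measured. Dotted lines mark all genes, at 80% in late-S and 57.9% in early-S cells. Long neuronal genes stand at 33.3 and 15.8%, and Hox genes at 92.9 and 42.1%.

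Cells of a class resembled each other only in part. The mean Pearson correlation of states between pairs of cells was 0.266 in the late-S cells (SD 0.100 over cells, 105 pairs) and 0.240 in the early-S cells (SD 0.102 over cells, 171 pairs). The cells' own means ran from 0.0788 to 0.411 in the late-S and from 0.0537 to 0.385 in the early-S class, so the classes overlapped throughout. Late-S cell 61 had the lowest and cell 17 the highest value among late-S cells, and early-S cell 35 the lowest and cell 2 the highest among early-S cells. The 10 cells between had 0.376 on average, from 0.247 to 0.472. The likeness to the siCont 8-cell profile was 0.471 ± 0.182 in the late-S, and 0.448 ± 0.168 in the early-S cells (SD over 15 and 19 cells).

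Runs of unreplicated DNA in late-S cells had a median of 25 bins (1.25 Mb), with cell medians from 22 to 28 bins. Runs of replicated DNA in early-S cells had a median of 23 bins (1.15 Mb), with cell medians from 20 to 29 bins. A late-S cell held 396 ± 76.2 unreplicated runs and an early-S cell 456 ± 64.4 replicated runs (SD over cells). The longest unreplicated run of a late-S cell was 24.2 Mb, and the longest replicated run of an early-S cell 27.85 Mb. The opposite states ran longer, with medians of 40 bins for replicated runs in late-S cells and 34 bins for unreplicated runs in early-S cells. The class rule largely fixes this, because replicated and unreplicated runs alternate and the opposite state covers more of each cell.

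Pairs of a late-S and an early-S cell show how often the order was broken. Of the bins that an early-S cell had replicated, a late-S cell still lacked 21.1% on average (SD 7.36 over late-S cells, 285 pairs), against 35.4% of all shared bins. The value was below that of all bins in 284 of 285 pairs, and ran from 1.20 to 39.98%. Per late-S cell the ratio to all bins ran from 0.323 in cell 17 to 0.824 in cell 9. Per early-S cell the mean out-of-order share ran from 14.8% in cell 60 to 31.7% in cell 35.

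Set beside the earlier stages, late-S cells were less alike at the 4-cell stage than at the later ones. The late-S pair correlation was 0.0699 (SD 0.0228 over 18 cells) at the 4-cell, 0.252 (SD 0.103 over 21 cells) at the 8-cell and 0.266 (SD 0.100 over 15 cells) at the morula stage. In early-S cells it was 0.100 (SD 0.0927 over 25 cells), 0.188 (SD 0.106 over 26 cells) and 0.240 (SD 0.102 over 19 cells). The 8-cell and morula stages lay within 1 SD of each other in both classes. With cells matched within 5 points of percent replicated, the late-S morula value was 0.277 against 0.0800 at the 4-cell stage, and 0.297 against 0.307 at the 8-cell stage. The out-of-order share relative to all bins was 0.809 at the 4-cell, 0.596 at the 8-cell and 0.595 at the morula stage. With matched cells it was 0.550 in morula against 0.810 in 4-cell cells, and 0.561 in morula against 0.651 in 8-cell cells. The median unreplicated run in late-S cells was 20, 21 and 25 bins at these stages, and the median replicated run in early-S cells 17, 19 and 23 bins. With matched cells the early-S runs were 22 bins in morula against 19 in 4-cell cells, and 23 in morula against 20 in 8-cell cells, and the late-S runs 25 against 20 and 26 against 22.

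The siRif1 morula cells showed a lower likeness between late-S cells, at 0.0515 (SD 0.0322 over 17 cells) against 0.266 in siCont morula cells. The own means ran from 0.00379 to 0.103 in siRif1 and from 0.0788 to 0.411 in siCont late-S cells, so they overlapped through siCont cell 61 alone. In early-S cells the siRif1 value was 0.174 (SD 0.0736 over 20 cells) against 0.240 in siCont cells, within 1 SD. After matching, the siRif1 values were 0.0613 in late-S and 0.158 in early-S cells, against 0.284 and 0.243 in the siCont cells matched to them. The out-of-order share relative to all bins was 0.824 in siRif1 against 0.595 in siCont morula cells. Median runs were 23 unreplicated bins in late-S and 21 replicated bins in early-S siRif1 cells, against 25 and 23 in siCont cells, within the spread of the cells.

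**Figure D5:**
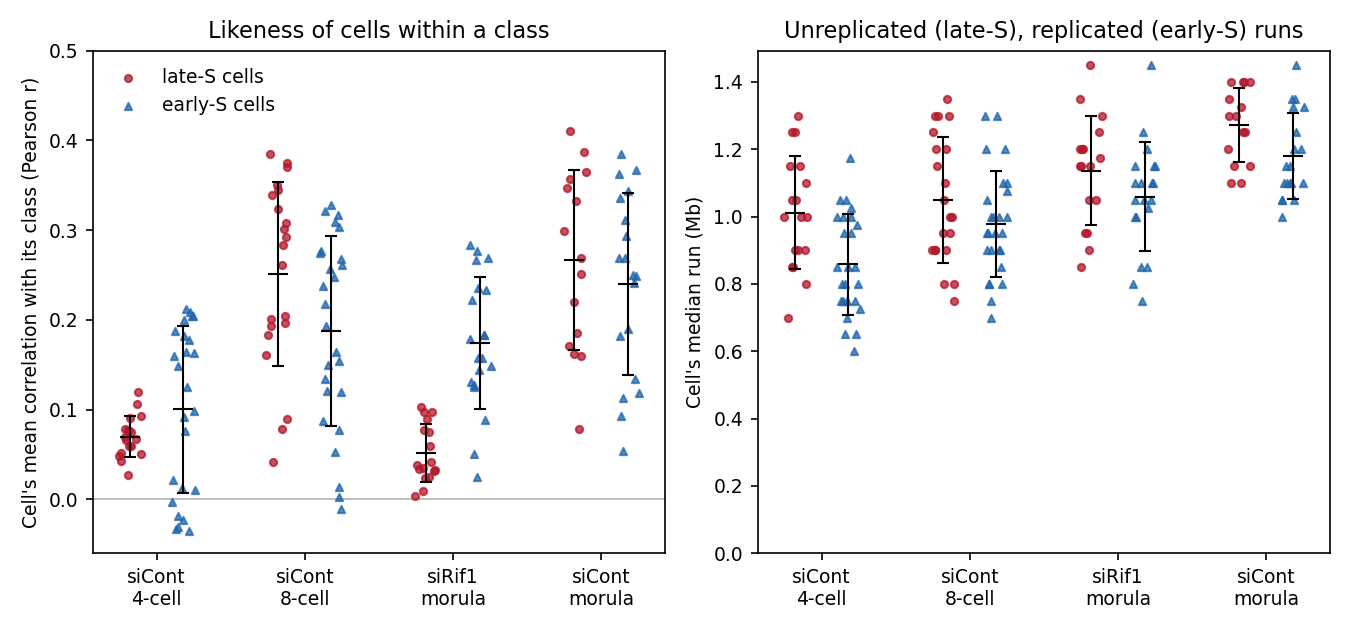
Left, each cell's mean correlation with the other cells of its class, and right, each cell's median run of unreplicated DNA (late-S) or replicated DNA (early-S) in Mb, for 4 groups. Points are cells (circles late-S, triangles early-S), and bars give mean and SD over cells. Late-S cells of siRif1 morulae average 0.0515 and those of siCont morulae 0.266.

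By each group's own cells, the rule called 416 last-replicated and 104 first-replicated bins at the siCont 4-cell stage, 3500 and 1335 at the 8-cell stage and 5393 and 3011 at the morula stage. In siRif1 morula cells it called 330 last-replicated and 1915 first-replicated bins. These counts move with the cells compared. After matching, morula cells had 5064 last-replicated and 4430 first-replicated bins against 678 and 2395 in 4-cell cells, and 7664 and 4568 against 7116 and 3369 in 8-cell cells. With 15 late-S and 19 early-S cells the steps of the share made the limits strictest in siCont morula cells. Matched siRif1 morula cells had 870 last-replicated and 2663 first-replicated bins, against 7774 and 4457 in the siCont cells matched to them.

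The bins called in siCont morulae can be read in cells that played no part in the call. A late-S cell had replicated 61.8 ± 16.8% of the last-replicated bins at the 4-cell stage and 28.7 ± 27.5% at the 8-cell stage, against 73.6 and 68.996% for all used bins. In siRif1 morula late-S cells they stood at 49.4 ± 18.9% against 68.2% for all used bins (SD over cells). The first-replicated bins stood at 48.8 ± 24.96% in early-S cells of the 4-cell stage, 65.1 ± 20.2% of the 8-cell stage and 64.3 ± 16.9% of siRif1 morulae, against 26.1, 32.7 and 34.5% for all used bins. The direction of the order was thus present in each other group, most weakly for the last-replicated bins at the 4-cell stage. Of the bins called last-replicated, 2390 were shared with the 8-cell stage, 44.3% of the morula and 68.3% of the 8-cell bins. Of the first-replicated bins 637 were shared, 21.2% of the morula and 47.7% of the 8-cell bins. Without the cells of low correlation, a choice that favours likeness to the 8-cell stage, 2991 last-replicated and 1020 first-replicated bins were shared. Without the cells that lacked an autosome or had one wholly in 1 state 3008 and 871 were.

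Because a call made on siCont morula cells favours those cells, the bins were also chosen on siCont 8-cell cells and read in both morula groups. The 3500 last-replicated bins so chosen were 46.3 ± 19.7% replicated in a siRif1 and 19.4 ± 19.6% in a siCont late-S morula cell (SD over 17 and 15 cells). In early-S cells they stood at 7.93% in siRif1 and 5.61% in siCont morulae. The 1335 first-replicated bins so chosen stood at 66.4% in siRif1 and 75.5% in siCont early-S cells, and at 81.0% in siRif1 and 89.2% in siCont late-S cells. With matched cells the late-S values for last-replicated bins were 42.4% in siRif1 and 17.6% in siCont morulae.

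Values of single windows are given only as a description, since the windows were picked for their extreme shares in the siCont morula cells. The Cadm2 window was replicated in 14 of 18 late-S cells at the 4-cell, 3 of 21 at the 8-cell and 0 of 14 at the siCont morula stage, and in 10 of 17 late-S cells of siRif1 morulae. The window of Olfm3 and Col11a1 was replicated in 8 of 18 late-S cells at the 4-cell, 4 of 21 at the 8-cell and 0 of 15 at the siCont morula stage, and in 6 of 17 of siRif1 morulae. The olfactory receptor window with Olfr1213 was replicated in 4 of 18 late-S cells at the 4-cell, 1 of 21 at the 8-cell and 0 of 15 at the siCont morula stage, and in 3 of 17 of siRif1 morulae. At the early end the Osbp2 window was replicated in 14 of 25 early-S cells at the 4-cell, 19 of 26 at the 8-cell and 18 of 19 at the siCont morula stage, and in 12 of 20 of siRif1 morulae.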

How the data were processed

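Single blastomeres of injected mouse embryos were lysed and their DNA was amplified with barcoded primers, as the labels' protocols describe. Each group has a table in which every cell has a deposited state of 0, 1 or NA for each 50-kb bin. Tools named in the submitters' processing notes, without roles, are R 4.2.3, bedtools, Picard, SAMtools and Bowtie2 2.5.1, and the build is GRCm38. How reads became states and the read depth per cell are not given in the sources used here. Of 416 labelled cells 299 had a column. Among the 72 labelled siCont morula cells 44 had one, and all 44 columns were kept.

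States were read with Python 3.11.15, numpy 2.4.6 and pandas 2.3.3. Shares, calls, correlations, runs (NA bins skipped, runs at chromosome ends left out) and out-of-order shares were computed as described, and tested on simulated cells with a known order. Genes came from RefSeq GRCm38.p6 by midpoint bin. Intervals are exact 95% Clopper-Pearson intervals (scipy 1.17.1). The rule for named genes took 6 last and 6 first 1-Mb windows with at least 10 used bins, at most 2 per chromosome in each set, with up to 3 of their longest genes, and each list's member with the highest early-S and with the lowest late-S share; others were named after their values were seen. Members and lists were chosen with earlier results of these data known. Alternatives changed the limits, the cells, the bins, the runs and the gene positions.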

Additional observations from a re-analysis of the deposited data

Results flagged for a closer look

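Among the 10 siCont morula cells between the classes, cell 55 had 31.4% of the last-replicated bins replicated, far above the other 9, which had at most 6.79%. It was the only such value among 7 measures looked at in these cells, and a cut of this kind picks out some groups by chance. The cell was 54.8% replicated, just under the limit of the late-S class, and had 87.0% of the first-replicated bins replicated.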

How the results depend on the processing

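No paired analysis was possible because the replicate numbers only name cells. Class limits of 40 and 60% moved the late-minus-early difference to 38.9 points. Keeping cells between 20 and 80% replicated gave 8722 last-replicated bins, 967 last-replicated genes, and late-S pair correlation differences of 0.239 for siCont morula minus 4-cell and -0.255 for siRif1 minus siCont morula. Share limits of 90 and 10% gave 1360 last-replicated and 138 first-replicated bins, and 120 last-replicated and 129 first-replicated genes. The late-S pair correlation of siCont morula minus 8-cell cells, 0.0147 with all cells, was -0.0122 over pairs within 5 points and -0.00993 with matched cells, and the cause was not tested.

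Other settings were chosen after seeing the data. Without cells of low likeness to the 8-cell profile there were 8547 last-replicated and 5725 first-replicated bins, and 944 last-replicated and 5837 first-replicated genes. The late-S pair correlation was then 0.369, which the choice of cells favours. Its differences were 0.299 for siCont morula minus 4-cell, 0.117 for minus 8-cell and -0.318 for siRif1 minus siCont morula, with -0.155 for the last of these in early-S cells. The out-of-order share over that of all bins differed by -0.319 for siCont morula minus 4-cell. Without cells with an autosome unmeasured or in 1 state there were 8638 last-replicated and 5289 first-replicated bins, 994 last-replicated and 5034 first-replicated genes, and late-S pair correlation differences of 0.271 for siCont morula minus 4-cell and -0.290 for siRif1 minus siCont morula.

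Leaving out 1 cell at a time gave 5393 to 7100 last-replicated and 3011 to 4314 first-replicated bins, a late-minus-early difference of 25.6 to 27.8 points, pair correlations of 0.244 to 0.295 in late-S and 0.223 to 0.262 in early-S cells, runs of 25 to 26 and 23 to 24 bins, and an out-of-order share of 20.1 to 21.8%. Read depth per cell is unknown, and the number of cells sets the steps of every share.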
